A study of Mus musculus with 4 samples.

Results

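The genes examined here are 29 genes of cholesterol and fatty acid synthesis, measured in RAW264.7, an established mouse macrophage-like cell line. They were taken as the probes whose gene name in the array design is one of the 29 symbols, which gave 42 probes for 29 of 29 genes, out of 36095 genes or names on the array. The study grew cells that carried a stably integrated vector for an artificial microRNA, either aimed at the lincRNA Linc-AAM (knockdown) or a scramble control, and kept each for 4 h with 50 µg/mL AEPS, a polysaccharide from Actinidia eriantha roots, or in DMEM medium without it. The 4 groups are knockdown under AEPS, knockdown in DMEM, scramble under AEPS and scramble in DMEM, with 1 array each. All groups share the parental line, the vector backbone, blasticidin selection and DMEM. The lines are bulk cultures of selected cells rather than single clones, and the labels name no second culture, so a difference between lines is a difference between 1 knockdown and 1 scramble culture line.

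The sources disagree on which line is which. Each column of the deposited value table ranked the probes like the scanner file of the other line with the same treatment (Spearman rho across 55657 probes rounds to 1), against 0.969 for the scanner file of its own label. The line names used here are those of the scanner files, and every line difference turns its sign if the value table's names are used instead. An AEPS effect averaged over the lines is the same under either naming. The level of Linc-AAM was not analysed here. Between 53.4% and 58.0% of spots were well above background, 0 spots were saturated, and probes printed repeatedly on an array varied from spot to spot with an SD of 0.037 to 0.046 (log2). All 10 macrophage markers examined were well above background on all 4 arrays, with a summed linear level of 886 to 971, and the hepatocyte markers Alb, Apoa1 and Ttr on none. The adipocyte markers Adipoq and Plin1 were not well above background on any array. The remaining adipocyte marker, Fabp4, was well above background on both AEPS arrays and on neither DMEM array. The sums below include the dim Adipoq and Plin1, so they do not show a rise of all 3 markers. The summed linear level of the 3 adipocyte markers was 0.302 under AEPS and 0.0316 in DMEM on the arrays labelled knockdown, and 0.637 under AEPS and 0.0326 in DMEM on those labelled scramble. The 3 fibroblast markers, of which Col1a2 was well above background on all arrays, summed to 0.233 under AEPS and 0.109 in DMEM on the arrays labelled knockdown, and to 0.307 under AEPS and 0.147 in DMEM on those labelled scramble. The part of these markers in the results was not tested.

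Cholesterol is built from acetyl-CoA through the mevalonate pathway, which leads to squalene, and then through the steps from lanosterol to cholesterol. Its enzymes are transcribed together under SREBP2, the product of Srebf2, while SREBP1, from Srebf1, is best known for the genes of fatty acid synthesis. Scap carries both factors out of the endoplasmic reticulum when sterols are low, and the Insig proteins hold them back when sterols are high. In macrophages this pathway is known to be coupled to inflammatory and interferon signalling, and oxysterols made during activation hold SREBP processing down.

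Probe sequences show what the arrays read. They are given 5′ to 3′ as in the deposited design for the genes on which the results below turn, with mm9 coordinates from the scanner files. Each is 60 bases long and is the whole measured stretch of its transcript. Genes with 2 probes show both, since each probe is a separate reading of the gene within an array.
Dhcr7 (chr7:151033874-151033933, plus strand): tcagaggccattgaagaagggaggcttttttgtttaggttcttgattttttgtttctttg
Idi1 (chr13:8891524-8891583, plus strand): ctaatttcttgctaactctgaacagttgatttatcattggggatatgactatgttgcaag
Hsd17b7, brighter probe (chr1:171880203-171880262, minus strand): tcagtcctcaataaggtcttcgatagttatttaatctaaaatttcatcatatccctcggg
Hsd17b7, other probe (chr1:171883182-171883241, minus strand): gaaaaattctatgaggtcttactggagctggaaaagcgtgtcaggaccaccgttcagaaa
Tm7sf2, brighter probe (chr19:6062882-6062941, minus strand): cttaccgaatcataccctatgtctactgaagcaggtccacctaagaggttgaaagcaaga
Tm7sf2, other probe (chr19:6063541-6063600, minus strand): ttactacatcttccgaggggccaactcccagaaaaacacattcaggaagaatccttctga
Scd1 (chr19:44469387-44469446, minus strand): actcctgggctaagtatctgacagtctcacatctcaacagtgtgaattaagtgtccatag
Scd2 (chr19:44381024-44381083, plus strand): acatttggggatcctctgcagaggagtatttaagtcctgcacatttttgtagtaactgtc
The longest run of bases that the Scd1 and Scd2 probes share is 6. Of the probes used for the 29 genes, the Fdps probe alone shares a run of 20 bases with probes of other names, 3 in number, so its value may hold signal from other transcripts. The coordinates carry no exon or UTR annotation in the files used here.

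Promoters of 23 of the 29 genes were matched in a RefSeq table of mouse build GRCm38.p6, each running from 250 bases before to 50 bases after a start site, and 5 of the 23 had several. Fdps, Fdft1, Sqle, Stard4, Scd1 and Scd2 had no entry. The motifs searched on both strands were TCACNCCAC, the core of the sterol regulatory element that SREBP binds, its stricter form TCACCCCAC, CCAAT, the box bound by NF-Y, which reads ATTGG on the other strand, and CACGTG, the E-box. CCAAT was present for 20 of 23 genes (87%), against 41.1% of all 27025 genes in the table and 42.7% of the 11182 of these tested on the array. An exact TCACNCCAC was present for Hmgcs1 alone (4.35%, against 1.44% of all genes and 1.42% of those tested on the array). There it reads TCACCCCAC (0.614% of all genes, 0.698% of those tested). Looser forms of the element were not searched, so the other genes cannot be said to lack one. CACGTG was present for 5 of 23 genes (21.7%), namely Hsd17b7, Sc5d, Dhcr7, Insig1 and Scap. It was present for 8.09% of all genes and 10.9% of those tested on the array. No letters of one motif searched overlap those of another in the 4 promoters printed here, apart from the nested forms of the sterol regulatory element. These 4 belong to the gene with the TCACNCCAC match, to both genes that rose with AEPS, and to Tm7sf2. Of the 29 genes, Tm7sf2 had the largest difference between the lines. TCACNCCAC and CCAAT on either strand are in capitals.
Hmgcs1 (chr13:119690101-119690400, plus strand): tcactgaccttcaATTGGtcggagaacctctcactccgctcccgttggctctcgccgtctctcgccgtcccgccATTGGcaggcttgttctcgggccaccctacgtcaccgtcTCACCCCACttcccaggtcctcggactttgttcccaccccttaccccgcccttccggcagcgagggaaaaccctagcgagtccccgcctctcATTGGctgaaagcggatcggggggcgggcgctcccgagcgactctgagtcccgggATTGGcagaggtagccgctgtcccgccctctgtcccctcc
Idi1 (chr13:8885356-8885655, plus strand): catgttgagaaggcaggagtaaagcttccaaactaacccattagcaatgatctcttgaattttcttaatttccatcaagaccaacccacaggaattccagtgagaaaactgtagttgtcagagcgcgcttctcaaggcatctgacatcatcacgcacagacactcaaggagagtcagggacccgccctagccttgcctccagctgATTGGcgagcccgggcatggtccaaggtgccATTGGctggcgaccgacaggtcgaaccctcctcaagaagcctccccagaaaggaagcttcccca
Hsd17b7 (chr1:169969156-169969455, minus strand): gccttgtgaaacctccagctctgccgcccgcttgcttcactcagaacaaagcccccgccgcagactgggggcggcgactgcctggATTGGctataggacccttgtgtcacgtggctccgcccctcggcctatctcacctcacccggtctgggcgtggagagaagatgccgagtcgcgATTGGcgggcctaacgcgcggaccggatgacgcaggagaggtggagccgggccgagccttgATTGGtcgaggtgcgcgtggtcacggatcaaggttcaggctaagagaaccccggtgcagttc
Tm7sf2 (chr19:6067801-6068100, minus strand): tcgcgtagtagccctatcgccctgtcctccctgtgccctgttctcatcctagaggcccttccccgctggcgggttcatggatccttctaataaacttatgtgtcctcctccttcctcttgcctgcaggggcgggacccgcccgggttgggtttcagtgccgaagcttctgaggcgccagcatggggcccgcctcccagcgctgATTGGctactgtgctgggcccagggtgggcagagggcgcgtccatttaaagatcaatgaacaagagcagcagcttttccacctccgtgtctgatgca
The TCACCCCAC match in the Hmgcs1 promoter has its first base at -137 from the start site. That promoter also holds 4 CCAAT boxes, while Hsd17b7 holds 3, Idi1 2 and Tm7sf2 1. A match is a description of letters, and binding was not measured.

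The first comparison asked what AEPS did to these genes over both lines. Under AEPS the level of Dhcr7 fell, which encodes the enzyme that makes cholesterol from its immediate precursor in one branch of the pathway. Idi1 rose, which interconverts the isoprenoid building units, and so did Hsd17b7, a ketoreductase of sterol demethylation. The other 26 genes did not pass the test. A level is log2 of the processed intensity minus the array's 75th percentile, and levels of different probes cannot be set against each other. An additive limma model of line and treatment was fitted to 22341 genes well above background on at least 2 arrays, with Benjamini-Hochberg adjusted p under 0.05 as the threshold. A gene's own spread has only 1 residual degree of freedom, set by how unequal its AEPS effect was in knockdown and scramble. The limma step eBayes joins it to a prior spread pooled over all genes tested (SD 0.132, 2.82 prior degrees of freedom). The prior has the larger weight, so SE and p-values do not rest on the gene's own spread alone. By this model 2 of 29 genes rose, where 7.4% of all genes tested rose, and 1 of 29 fell, where 7.29% fell. The median AEPS effect was 0.04 for the 29 genes and 0.07 for all genes tested. Total RNA of whole cultures was measured, so fewer cells of a type and less RNA per cell cannot be told apart.

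Dhcr7 stood at -0.95 under AEPS and 0.37 in DMEM on the arrays labelled knockdown, and at -0.74 under AEPS and 0.89 in DMEM on the arrays labelled scramble. Both AEPS arrays lay below both DMEM arrays. Its level fell by 1.47 ± 0.14 (log2, SE; adjusted p = 0.0154 by limma), which was 0.400 times the DMEM signal on the arrays labelled knockdown and 0.324 times on those labelled scramble. Over the other settings tried its adjusted p ran from 8.81e-05 to 0.0804, and it missed the threshold where no filter on dim genes was used.

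Idi1 had 4.32 under AEPS and 3.52 in DMEM on the arrays labelled knockdown, and 4.78 under AEPS and 4.14 in DMEM on those labelled scramble. Each AEPS array was above the DMEM array of its line and above both DMEM arrays. The effect was 0.72 ± 0.12 (limma adjusted p = 0.0385), a factor of 1.74 on the arrays labelled knockdown and 1.57 on those labelled scramble. It missed the threshold with quantile normalization and in the value table (0.59, adjusted p = 0.0559 by limma). Idi1 also missed it with no filter on dim genes (limma adjusted p = 0.183) and with the line left out of the model (limma adjusted p = 0.219). Its adjusted p ran from 0.000913 to 0.219 by limma.

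Hsd17b7 had 1.60 under AEPS and 0.82 in DMEM on the arrays labelled knockdown, and 2.10 under AEPS and 1.26 in DMEM on those labelled scramble. Again both AEPS arrays lay above both DMEM arrays. The effect was 0.81 ± 0.11 (limma adjusted p = 0.0291, with a range of 0.00141 to 0.154 over the settings). Hsd17b7 missed the threshold with no filter on dim genes (limma adjusted p = 0.154) and with the line left out of the model (limma adjusted p = 0.153). The second Hsd17b7 probe printed above differed by 0.54 on the arrays labelled knockdown and 0.69 on those labelled scramble, in the same direction as the brighter one.

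The rest of the mevalonate and squalene steps had AEPS effects between -0.15 and 0.24. Hmgcs1, the synthase that makes HMG-CoA, had 4.37 under AEPS and 3.97 in DMEM on the arrays labelled knockdown, and 4.98 under AEPS and 4.89 in DMEM on those labelled scramble. Its effect of 0.24 ± 0.14 did not pass the test (limma adjusted p = 0.292). Mvk and Pmvk, the kinases that phosphorylate mevalonate, had effects of -0.14 and 0.19. Mvd, which decarboxylates the product, had -0.14, and Fdps, which makes farnesyl diphosphate, had 0.13. Fdft1, the squalene synthase, had 0.14, and Sqle, the epoxidase that follows it, had -0.15.

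Among the 9 genes from lanosterol to cholesterol, 1 rose, 1 fell and 7 did not pass the test. Sc5d, a desaturase late in the pathway, had 3.04 under AEPS and 2.70 in DMEM on the arrays labelled knockdown, and 3.56 under AEPS and 3.06 in DMEM on those labelled scramble. The AEPS array was the higher one in each line, but the knockdown array under AEPS lay below the scramble array in DMEM. Its effect of 0.42 ± 0.12 had a limma adjusted p of 0.100, and passed with the normexp background (0.0329) and with an intensity trend in the limma prior (0.0235). Lss, the cyclase that closes lanosterol, and Cyp51, the first demethylase, had effects of 0.04 and 0.01. Msmo1 and Nsdhl, which with Hsd17b7 remove the remaining methyl groups, had -0.01 and 0.20, and the isomerase Ebp had -0.20.

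None of the 5 genes of SREBP control passed the test, and 0 of them had an unadjusted limma p under 0.05, against 33.9% of all genes tested. Srebf1 had -1.04 under AEPS and -0.80 in DMEM on the arrays labelled knockdown, and -1.15 under AEPS and -0.71 in DMEM on those labelled scramble. Its effect was -0.34 ± 0.12 (limma adjusted p = 0.157), with both AEPS arrays below both DMEM arrays. Srebf2, Insig1, Insig2 and Scap had effects of 0.13, 0.12, -0.03 and 0.09. Stard4, a carrier of free sterol inside cells, had -0.25 ± 0.13.

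Of the 6 genes of fatty acid synthesis none passed the test, and 2 had an unadjusted limma p under 0.05, namely Acly and Elovl6. That is 33.3% of them, against 33.9% of all genes tested. Elovl6, an elongase of saturated fatty acids, had 1.37 under AEPS and 1.89 in DMEM on the arrays labelled knockdown, and 1.53 under AEPS and 2.43 in DMEM on those labelled scramble. Both AEPS arrays lay below both DMEM arrays, and the effect of -0.71 ± 0.15 had a limma adjusted p of 0.0575. It passed in several other settings, with the lowest adjusted p of 0.00482 under the intensity trend. Acly, which makes cytosolic acetyl-CoA from citrate, had 5.34 under AEPS and 4.98 in DMEM on the arrays labelled knockdown, and 5.26 under AEPS and 4.96 in DMEM on those labelled scramble. Both AEPS arrays were above both DMEM arrays, with an effect of 0.33 ± 0.11 (limma adjusted p = 0.141). Acaca, the carboxylase that commits acetyl-CoA to fatty acids, had 0.13, and Fasn, the fatty acid synthase, had 0.18.

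Scd1 and Scd2 encode desaturases that put a double bond into saturated fatty acids. Scd2 had 5.39 under AEPS and 5.64 in DMEM on the arrays labelled knockdown, and 4.76 under AEPS and 5.92 in DMEM on those labelled scramble. The scramble array under AEPS was the low one, and the 2 AEPS arrays were both below the 2 DMEM arrays. The AEPS effect over both lines was -0.70 ± 0.26 (limma adjusted p = 0.157). Scd1 had -0.66 under AEPS and -0.48 in DMEM on the arrays labelled knockdown, and -0.12 under AEPS and 0.23 in DMEM on those labelled scramble, with an effect of -0.26 ± 0.12. With the intensity trend, limma put 4 of the 29 genes past the threshold upward (Idi1, Hsd17b7, Sc5d and Acly), where 16.2% of all genes passed, and 3 downward (Dhcr7, Scd2 and Elovl6), where 13.8% passed.

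The plot of AEPS effects by line sets the difference on the arrays labelled knockdown against that on the arrays labelled scramble for each gene. With 1 array a group these pairwise differences have no test, and a gene was called where the signals, each well above background, were at least 2-fold apart, or where a bound was. On the arrays labelled knockdown 0 of 29 genes were called higher, against 4.64% of all genes, and Dhcr7 was called lower, against 3.49%. On the arrays labelled scramble 0 of 29 were called higher, against 6.7% of all genes, and Dhcr7 and Scd2 were called lower, against 5.22%. Scd2 was 0.842 times its DMEM signal under AEPS on the arrays labelled knockdown and 0.448 times on those labelled scramble.

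**Figure D1:**
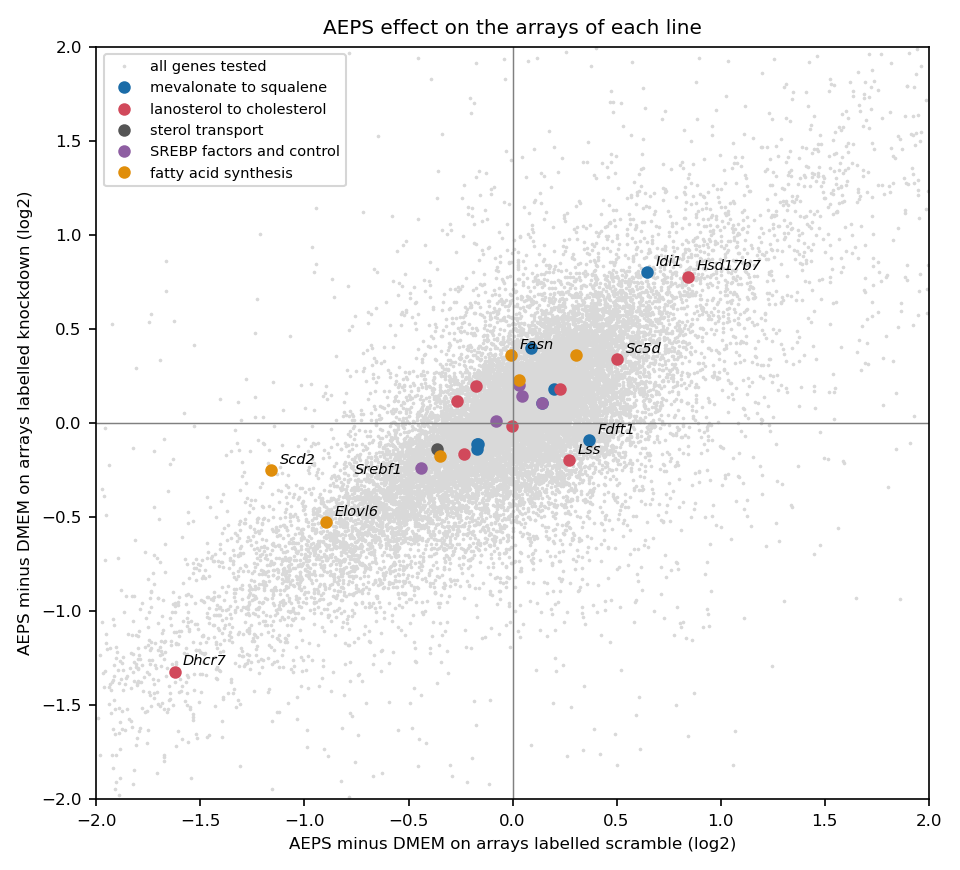
AEPS minus DMEM on the arrays labelled knockdown (vertical axis, log2) against the same difference on the arrays labelled scramble (horizontal axis, log2), with 1 point per gene, the 29 genes coloured by role and all genes tested in grey. Dhcr7 lies lowest at -1.32 on the knockdown axis and -1.62 on the scramble axis, Idi1 and Hsd17b7 are the highest of the 29 on both axes, and Scd2 lies at -0.25 and -1.16. Grey points beyond the axes are not drawn.

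The second comparison set the lines against each other and asked whether the cells with the vector against Linc-AAM held other levels of these transcripts. All 17 enzymes of the mevalonate, squalene and lanosterol steps had a line effect below 0, that is, a lower level on the arrays labelled knockdown, with a median of -0.44, where 51.42% of all genes tested and 58.54% of those with a mean level at or above the 75th percentile were below 0. The median was -0.50 for the 8 genes of the mevalonate and squalene steps and -0.36 for the 9 genes from lanosterol to cholesterol, with Lss counted among the 9. It was -0.16 for the 5 genes of SREBP control and 0.01 for the 6 genes of fatty acid synthesis. It was -0.01 for all genes tested and -0.04 for the 10861 genes whose mean level was at or above the 75th percentile. No single gene of the 29 passed the limma test, and under the value table's labels the same differences are higher in the line labelled knockdown.

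By limma 0 of 29 genes were higher, against 0.398% of all genes, and 0 were lower, against 0.34%, while 12 of 29 had an unadjusted p under 0.05, against 14.55% of all genes. With the intensity trend 7 of 29 passed as lower, against 3.16% of all genes, and 0 as higher, against 2.6%. These were Hmgcs1, Mvk, Pmvk, Idi1, Fdps, Tm7sf2 and Scd1. With the normexp background 5 of 29 passed as lower, against 1.42%, and 0 as higher, against 1.88%. These were Hmgcs1, Pmvk, Idi1, Tm7sf2 and Scd1. Both knockdown arrays lay below both scramble arrays for 17 of 29 genes, against 13.4% of all genes, and above them for 0, against 13.7%. The difference had the same sign in both media, downward, for 23 of 29 genes, against 32.7% of all genes, and upward for 1, Acly, against 30.2%.

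Tm7sf2, a sterol reductase that acts after Cyp51, had the largest line effect among the 29 genes. Its level was 0.25 under AEPS and 0.13 in DMEM on the arrays labelled knockdown, against 1.10 under AEPS and 1.37 in DMEM on those labelled scramble. The groups did not overlap, and the knockdown signal was 0.553 times the scramble signal under AEPS and 0.424 times in DMEM. The line effect was -1.05 ± 0.15 (limma adjusted p = 0.112, and 0.00325 with the intensity trend). The second Tm7sf2 probe printed above gave -0.88 under AEPS and -1.29 in DMEM, against -0.85 and -1.24 for the brighter probe.

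Hmgcs1, whose levels are given above, had a line effect of -0.76 ± 0.14 (limma adjusted p = 0.153), with both knockdown arrays below both scramble arrays. Mvk had 3.50 under AEPS and 3.61 in DMEM on the arrays labelled knockdown, against 3.98 under AEPS and 4.15 in DMEM on those labelled scramble. Pmvk had 4.19 under AEPS and 4.01 in DMEM on the arrays labelled knockdown, against 4.77 under AEPS and 4.58 in DMEM on those labelled scramble. For both kinases the 2 lines did not overlap, and the line effects were -0.51 and -0.57, each ± 0.11. Fdps had 6.29 under AEPS and 6.18 in DMEM on the arrays labelled knockdown, against 6.78 under AEPS and 6.64 in DMEM on those labelled scramble, a line effect of -0.48 ± 0.11. Idi1 had a line effect of -0.54 ± 0.12, but its knockdown array under AEPS, at 4.32, lay above the scramble array in DMEM, at 4.14.

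Sqle, Mvd and Fdft1 had smaller line effects, of -0.31, -0.24 and -0.34. Sqle had 4.52 under AEPS and 4.66 in DMEM on the arrays labelled knockdown, against 4.82 under AEPS and 4.99 in DMEM on those labelled scramble. Mvd had 1.44 under AEPS and 1.55 in DMEM on the arrays labelled knockdown, against 1.65 under AEPS and 1.82 in DMEM on those labelled scramble. Fdft1 had 1.71 under AEPS and 1.80 in DMEM on the arrays labelled knockdown, against 2.29 under AEPS and 1.92 in DMEM on those labelled scramble. In all 3 genes both knockdown arrays lay below both scramble arrays. For Fdft1 the difference between the lines was -0.57 under AEPS and -0.12 in DMEM on the brighter probe. The other Fdft1 probe read -0.80 under AEPS and -1.19 in DMEM, where its knockdown array was not well above background.

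Cyp51 had 0.42 under AEPS and 0.23 in DMEM on the arrays labelled knockdown, against 0.76 under AEPS and 0.94 in DMEM on those labelled scramble. The lines did not overlap, and the effect of -0.53 ± 0.15 did not pass the test by limma in any setting tried (adjusted p from 0.0669 to 1.0). Nsdhl had 0.76 under AEPS and 0.58 in DMEM on the arrays labelled knockdown, against 1.12 under AEPS and 0.90 in DMEM on those labelled scramble. Msmo1 had 5.53 under AEPS and 5.54 in DMEM on the arrays labelled knockdown, against 5.75 under AEPS and 5.75 in DMEM on those labelled scramble. Nsdhl and Msmo1 did not overlap between the lines either, with effects of -0.34 and -0.22. Hsd17b7, Sc5d, Dhcr7, Ebp and Lss, with effects of -0.47, -0.44, -0.36, -0.15 and -0.14, had no array order of this kind, except Sc5d, whose knockdown arrays were both below both scramble arrays.

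Outside the enzymes of the sterol backbone, Insig1 and Scd1 differed most between the lines. Insig1 had 0.20 under AEPS and 0.0011 in DMEM on the arrays labelled knockdown, against 0.55 under AEPS and 0.51 in DMEM on those labelled scramble, a line effect of -0.43 ± 0.12. Scd1 had a line effect of -0.62 ± 0.12 (limma adjusted p = 0.169, and 0.0295 with the intensity trend). In both genes the lines did not overlap. Srebf2 had 2.80 under AEPS and 2.69 in DMEM on the arrays labelled knockdown, against 2.98 under AEPS and 2.83 in DMEM on those labelled scramble. Its effect of -0.16 ± 0.11, and those of Insig2 (-0.24), Stard4 (-0.32), Scap (-0.06) and Srebf1 (0.01) did not pass the limma test, the lowest adjusted p being 0.392 for Stard4. Acaca, Acly and Fasn had line effects of -0.01, 0.05 and 0.02, Scd2 had 0.18 ± 0.26 and Elovl6 -0.35 ± 0.15.

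**Figure D2:**
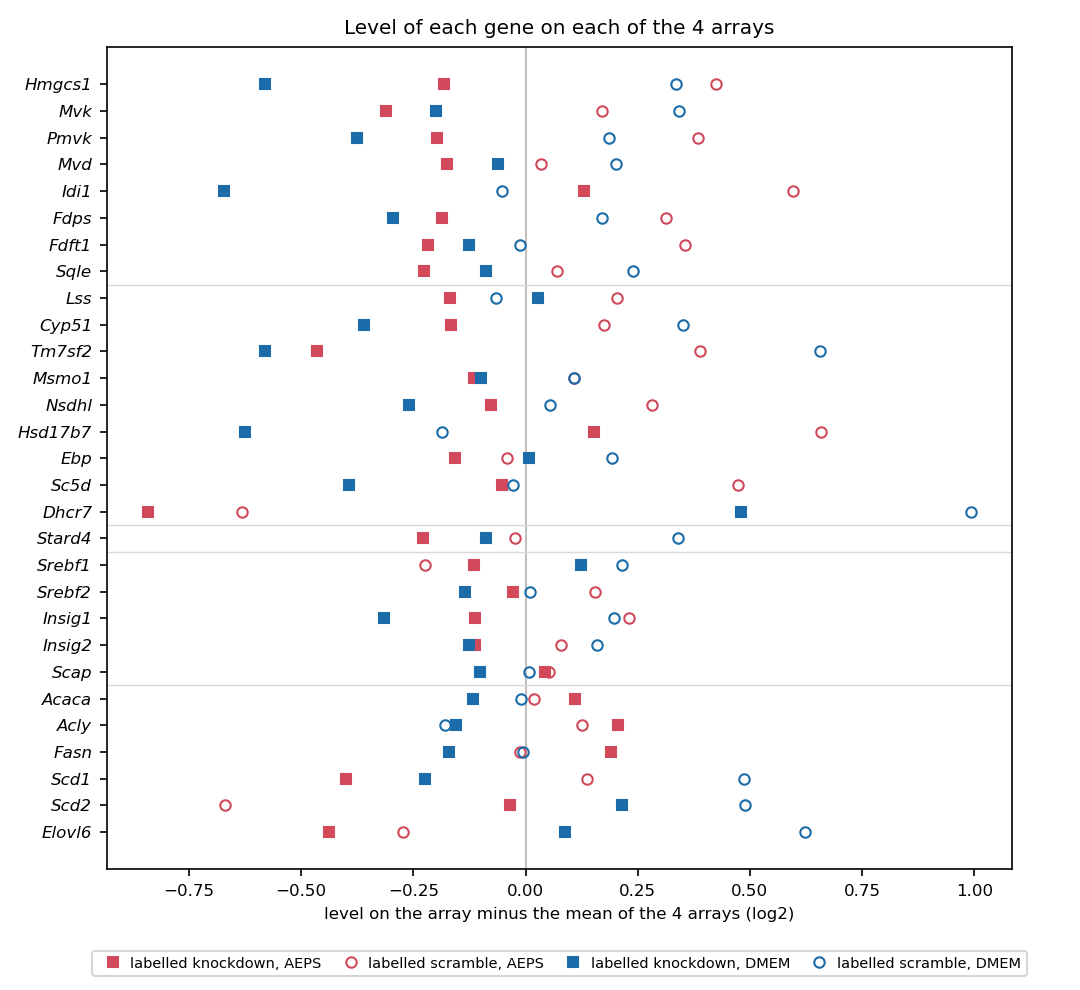
Level of each of the 29 genes on each array minus the mean of the 4 arrays (horizontal axis, log2), with 1 row per gene, squares for the arrays labelled knockdown and circles for those labelled scramble, red for AEPS and blue for DMEM. Grey lines part the roles. For 17 of the 29 genes, such as Hmgcs1 and Tm7sf2, both squares lie left of both circles, while the colours part for Dhcr7 and Elovl6.

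By size, 0 of 29 genes were called higher on the knockdown array under AEPS, against 1.85% of all genes, and 0 lower, against 2.69%. In DMEM 0 were called higher, against 2.36%, and Tm7sf2 alone was called lower, against 1.51%. The median difference of the 29 genes was -0.30 under AEPS and -0.33 in DMEM, against 0.0023 and -0.02 for all genes tested. Below 0 were 24 of 29 genes under AEPS and 27 of 29 in DMEM, against 49.59% and 52.92% of all genes tested. Among the 10861 genes with a mean level at or above the 75th percentile, 52.48% were below 0 under AEPS and 62.3% in DMEM. The plot of line differences in each medium shows the differences of the 29 genes as a shift of the coloured points toward the lower left.

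**Figure D3:**
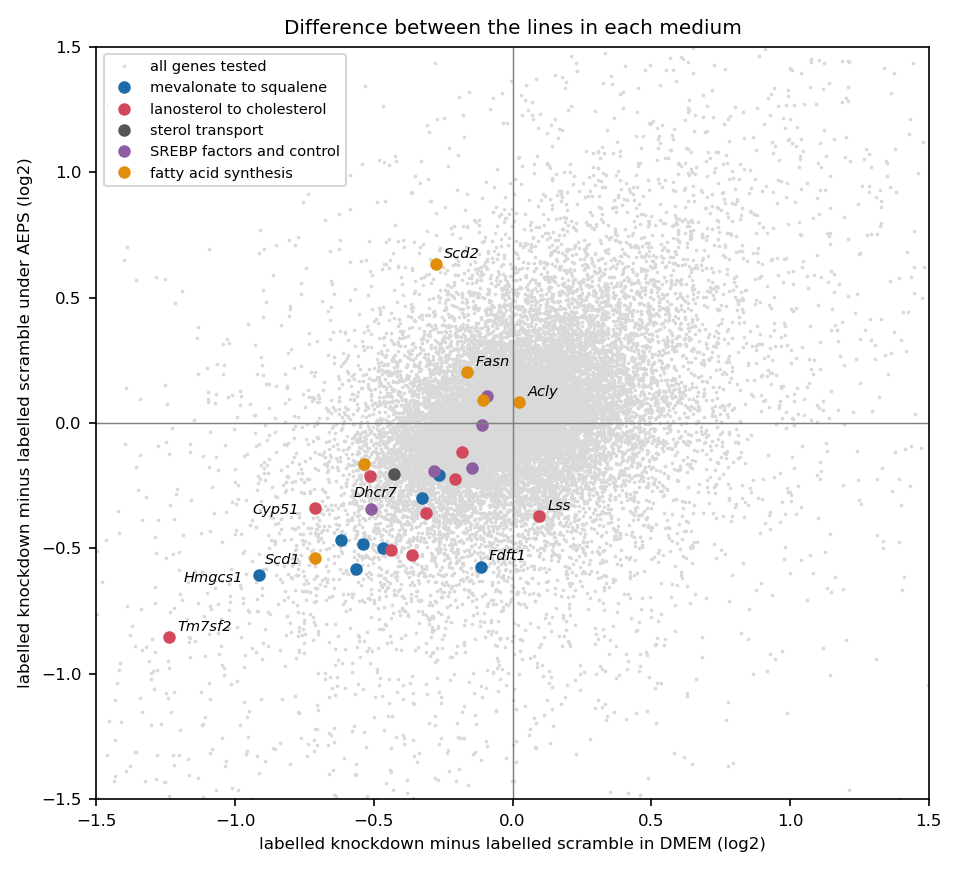
Array labelled knockdown minus array labelled scramble under AEPS (vertical axis, log2) against the same difference in DMEM (horizontal axis, log2), with 1 point per gene, the 29 genes coloured by role and all genes tested in grey. Tm7sf2 lies farthest out at -0.85 under AEPS and -1.24 in DMEM, and Scd2 lies apart at 0.63 under AEPS and -0.28 in DMEM. Grey points beyond the axes are not drawn, and under the value table's labels both axes change sign.

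The third comparison was of the AEPS effect between the lines, knockdown minus scramble as labelled. It has no residual degrees of freedom and no test. Of the 29 genes 0 had a difference of at least 1 upward, against 0.526% of genes well above background on all 4 arrays, and 0 downward, against 1.63%. Scd2 had the largest, 0.91, from AEPS effects of -0.25 on the arrays labelled knockdown and -1.16 on those labelled scramble. All 6 genes of fatty acid synthesis had a positive difference, with a median of 0.28, against 0.09 for the 29 genes and 0.04 for all genes tested, of which 12326 of 22341 were above 0. Among the 10861 genes with a mean level at or above the 75th percentile, 6786 were above 0. The 9 genes from lanosterol to cholesterol had a median of -0.01, with Tm7sf2 at 0.38 and Lss at -0.47 at the ends. Lss had 0.38 under AEPS and 0.58 in DMEM on the arrays labelled knockdown, and 0.75 under AEPS and 0.48 in DMEM on those labelled scramble. Fasn had 0.58 under AEPS and 0.22 in DMEM on the arrays labelled knockdown, and 0.38 under AEPS and 0.39 in DMEM on those labelled scramble. The within-array error of a difference of 2 arrays is 0.065 on this scale, and it leaves out the spread between cultures. A difference between the AEPS effects of the lines draws on all 4 arrays, so its within-array error is larger.

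For 11 of the 29 genes 2 or more probes gave separate readings. The probe plot shows that Tm7sf2, Mvk, Pmvk and Acly read alike, with ranges between probes of at most 0.15 in all 4 pairwise differences. Acaca, with 4 probes, ranged by 1.21 in the AEPS effect on the arrays labelled scramble. There a dim probe, still well above background on all 4 arrays, read -1.18 and the probe used 0.03. The used Acaca probe and its neighbour, 1 base apart, share 55 bases, shown in capitals, and differ only at their ends.
Acaca, probe used (chr11:84215093-84215152, plus strand): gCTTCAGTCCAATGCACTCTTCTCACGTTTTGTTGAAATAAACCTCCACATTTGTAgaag
Acaca, neighbour (chr11:84215094-84215153, plus strand): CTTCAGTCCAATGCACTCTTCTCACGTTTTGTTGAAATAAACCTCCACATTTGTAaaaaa
Acaca, dim probe (chr11:84211638-84211697, plus strand): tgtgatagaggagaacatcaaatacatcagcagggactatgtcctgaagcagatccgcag
The neighbour read 0.16 on the arrays labelled knockdown and 0.01 on those labelled scramble for AEPS, against 0.23 and 0.03 for the probe used. The Stard4 probes had opposite signs, with AEPS effects of -0.14 and -0.36 on the knockdown and scramble arrays for the brighter probe and 0.30 and 0.30 for the other. The dimmer Srebf2 probe had AEPS effects of 0.56 on the arrays labelled knockdown and 0.57 on those labelled scramble, against 0.11 and 0.14 for the brighter one. Insig2 is among the genes whose lines did not overlap on the brighter probe, with line differences of -0.19 under AEPS and -0.28 in DMEM. Its other probe, well above background on all 4 arrays, read 0.29 under AEPS and -0.03 in DMEM, and there the lines overlapped. The dim Fdft1 probe, which was not well above background on the knockdown array in DMEM, read 0.88 on the arrays labelled knockdown, against -0.09 for the brighter one.

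**Figure D4:**
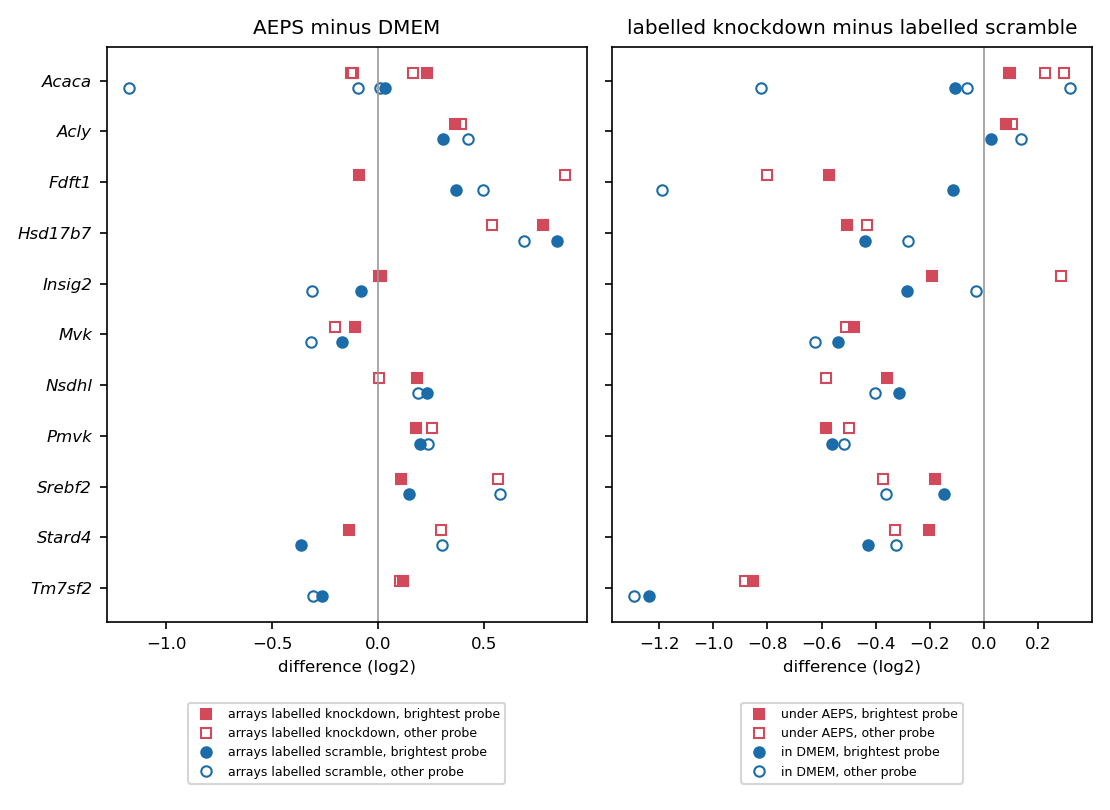
Differences read by each probe of the 11 genes with several probes, AEPS minus DMEM (left panel, log2) and labelled knockdown minus labelled scramble (right panel, log2). Filled marks are the brightest probe, which gave the reported value, and open marks the others. The Tm7sf2 marks lie close together in both panels, and those of Acaca, Fdft1 and Stard4 lie apart.

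Further genes of the pathway and its neighbours were read from 5 lists, whose counts of calls stand against the 7.4% of all genes tested that rose and the 7.29% that fell. Of 9 tested genes of other sterol and isoprenoid enzymes, 1 rose with AEPS and 0 fell by limma. That gene was Por, the reductase that supplies electrons to Cyp51 and Sqle, which had 6.01 under AEPS and 5.09 in DMEM on the arrays labelled knockdown, and 5.94 under AEPS and 5.20 in DMEM on those labelled scramble. Its effect was 0.83 ± 0.12 (limma adjusted p = 0.0318). Of 9 tested genes of SREBP processing and degradation, 0 passed in either direction, and 2 (22.2%) had an unadjusted limma p under 0.05, against 33.9% of all genes tested. Their median effect was 0.23, against 0.07 for all genes tested.

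Of 25 tested genes of other fatty acid and glycerolipid synthesis 3 rose and 3 fell with AEPS. Lpin1, a phosphatidate phosphatase of triglyceride synthesis, had an effect of -1.93 ± 0.11 (limma adjusted p = 0.00847). The scramble array under AEPS was not well above background for it, and there it was at least 3.76-fold lower than in DMEM. Its relative Lpin2 fell by 1.01 on the log2 scale, while Dgat2, which makes triglyceride, rose by 0.76 and the desaturase gene Fads3 by 1.26. Among 11 genes of sterol uptake, esterification and transport 2 rose and 1 fell. Gramd1a and Gramd1b, carriers of cholesterol from the plasma membrane, rose by 1.09 and 1.27, and Nceh1, a cholesteryl ester hydrolase, fell by 1.23.

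Ch25h, of the oxysterol list, makes an oxysterol that holds SREBP processing back. It was well above background on both AEPS arrays and on neither DMEM array. Its levels were -1.11 under AEPS and -6.87 in DMEM on the arrays labelled knockdown, and -0.68 under AEPS and -7.52 in DMEM on those labelled scramble, where the DMEM values lie within the background. The level under AEPS was at least 12.2-fold higher on the arrays labelled knockdown and at least 25.9-fold higher on those labelled scramble. Of the 7 tested genes of this list 2 rose and 2 fell, with Ch25h among those that rose, although it passed the filter on dim genes only through the AEPS arrays. The other was Rxra, a partner of nuclear receptors. It was 1.76-fold higher under AEPS on the arrays labelled scramble and at least 2.62-fold higher on those labelled knockdown, where its DMEM array was not well above background. Cyp27a1 and Hsd3b7, enzymes of sterol and bile acid metabolism, fell by 0.90 and 1.35. For the line, 0 genes of the 5 lists passed the limma test, against 0.398% of all genes tested higher and 0.34% lower. An unadjusted limma p under 0.05 was held by 14.55% of all genes tested. In the lists, in the order given, it was held by 0 of 9, 1 of 9 (11.11%), 4 of 25 (16%), 3 of 11 (27.27%) and 1 of 7 genes (14.29%). The median line effect was -0.11 for the other sterol and isoprenoid enzymes and 0.28 for the oxysterol genes, against -0.44 for the 17 enzymes.

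**Figure D5:**
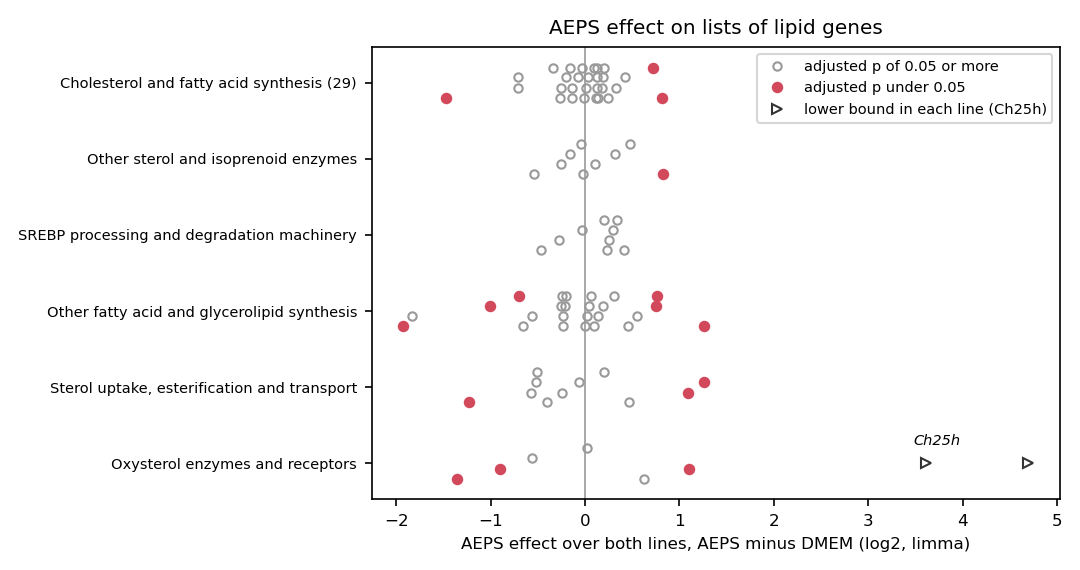
AEPS effect over both lines by limma (horizontal axis, log2) for the 29 genes and the 5 other lists, with 1 point per gene tested and filled points for an adjusted p under 0.05. Open triangles give Ch25h by its lower bounds of 3.61 on the arrays labelled knockdown and 4.70 on those labelled scramble, in place of a limma value. The 29 genes lie between -1.47 and 0.81.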

How the data were processed

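Total RNA of 4 RAW264.7 cultures was labelled with Cy3 and read on 4 one-colour Agilent mouse arrays on 1 slide. Each deposited scanner file gives linear intensity per spot from Agilent Feature Extraction 10.7.1.1, background-subtracted and detrended within each array, per the file headers, with probe coordinates in mm9. The deposited value table holds the authors' log2 values, whose making no source used here describes. It served as an alternative. With its columns matched to the scanner files, 3385 genes were called for AEPS, against 3388 with quantile normalization, and the effects were nearly the same. These settings therefore cannot be taken as separate checks.

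From log2 of the processed intensity the 75th percentile of the array was subtracted. Control spots and outlier spots (164 to 231 per array) were left out, spots of a probe were averaged, and a gene took its probe with the highest mean signal. Names were updated through a RefSeq gene table, with 26582 probes matched on accession, 2602 on symbol and 492 on a synonym, while 26005 kept the name of the design. The 22341 genes that 2 or more arrays read well above background were tested with limma 3.58.1 in R 4.3.3 (lmFit, eBayes, Benjamini-Hochberg over all genes tested, threshold 0.05) in an additive model of line and treatment, with 2.82 prior degrees of freedom. Pairwise differences have 1 array a group and no test, and were called at 2-fold. A gene well above background on 1 of 2 arrays has only a bound, written "at least": it divides the bright array's signal by the dim array's, or by the lowest signal that passed as well above background there if that is higher. All 29 genes are named, and from each other list up to 4 genes with the largest AEPS effects past the threshold. The genes and lists were chosen with earlier results of these data known. P-values here cover the spread among the 4 arrays alone, which may be technical, and the number of arrays limits precision. Other settings were the normexp background (offset 50), quantile normalization, the probe mean, the value table, other filters on dim genes, an intensity trend in eBayes, a factor left out, and 1.5-fold.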

Additional observations from a re-analysis of the deposited data

Results flagged for a closer look

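Several genes had pairwise differences that were opposite in sign, beyond the within-array error, between the 2 lines or the 2 media. Each rests on 4 single arrays, and none of these differences was tested. Between the lines, knockdown minus scramble as labelled, the AEPS effect differed by -0.46 for Fdft1 (-0.09 and 0.37), -0.47 for Lss (-0.20 and 0.27), 0.37 for Cyp51 (0.20 and -0.18) and 0.38 for Tm7sf2 (0.12 and -0.27). Both Tm7sf2 probes read these signs. The second, dim Fdft1 probe read the AEPS effect with the same sign in both lines (0.88 and 0.49), and Lss and Cyp51 have 1 probe each. The line difference under AEPS minus that in DMEM was -0.47 for Lss (-0.37 and 0.10), 0.20 for Srebf1 (0.11 and -0.09), 0.20 for Acaca (0.09 and -0.11), 0.37 for Fasn (0.20 and -0.16) and 0.91 for Scd2 (0.63 and -0.28). For Acaca, 1 of the other probes read the line difference in DMEM with the opposite sign (0.32).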

How the results depend on the processing

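The main limits are 1 array per group, 1 residual degree of freedom and line labels that the sources give in opposite ways. No paired analysis was possible because each group holds 1 array and the groups share fewer than 2 replicate numbers. Leaving out an array leaves 0 residual degrees of freedom, so no such fit was made. The causes of the shifts below were not tested. The filters on dim genes changed the number of genes tested and also the prior SD of eBayes. That SD was 0.201 with no filter and 0.126 when all 4 arrays had to be well above background, against 0.132 in the main fit.

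For AEPS over both lines, 2 of the 29 genes rose, 1 fell and 3282 genes were called in all. Of the 29, 2 fell with the normexp background. With quantile normalization and with the value table, under either naming of its lines, 1 rose and 2 fell. When all 4 arrays had to be well above background 2 fell, and with no filter 0 rose and 0 fell. With the intensity trend 4 rose and 3 fell, and with the line left out of the model 0 rose. Genes called came to 5100 with normexp, 303 with no filter, 6698 with the trend and 1323 with the line left out. Effects that did not pass the test changed sign for Cyp51 (-0.03) and Msmo1 (0.01) with normexp, Stard4 (0.02) and Acaca (-0.14) with the probe mean, and Fdps (-0.10) and Scap (-0.06) with quantile normalization and the value table.

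For the line, 0 of the 29 genes were called, with 165 genes in all. Of the 29, 5 passed as lower with normexp and 7 with the trend. Genes called came to 735 with normexp, 337 when all 4 arrays had to be well above background, 0 with no filter, 1288 with the trend and 0 with the treatment left out. Signs changed with quantile normalization and the matched value table for Srebf1 (-0.01), Scap (0.02) and Acaca (0.06), and with the probe mean for Acaca (0.004). The median line effect of the 29 genes stayed between -0.35 and -0.29 over the scalings, and was 0.29 under the value table's own labels. Under those labels the effects were 0.68 for Hmgcs1, 0.44 for Mvk, 0.49 for Pmvk, 0.21 for Mvd, 0.46 for Idi1, 0.43 for Fdps, 0.29 for Fdft1 and 0.22 for Sqle. They were 0.13 for Lss, 0.53 for Cyp51, 1.04 for Tm7sf2, 0.16 for Msmo1, 0.32 for Nsdhl, 0.44 for Hsd17b7, 0.08 for Ebp, 0.38 for Sc5d, 0.36 for Dhcr7 and 0.28 for Stard4. The other values were 0.10 for Srebf2, 0.43 for Insig1, 0.21 for Insig2, -0.13 for Acly, -0.02 for Fasn, 0.65 for Scd1, -0.25 for Scd2 and 0.32 for Elovl6. Srebf1 (0.01), Scap (-0.02) and Acaca (-0.06) kept their sign under those labels.

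For the pairwise calls of AEPS on the arrays labelled knockdown, 1815 genes became 1087 with normexp, 2773 under the value table's own labels and 4582 at 1.5-fold, and of the 29 genes 2 were lower under those labels and 2 higher at 1.5-fold. On the arrays labelled scramble, 2802 genes became 1742, 1854 and 5859 under the same settings, with 1 of the 29 lower under those labels and 2 higher at 1.5-fold. For the lines under AEPS, 1034 genes became 491 with normexp and 2565 at 1.5-fold, with 1 of the 29 higher and 2 lower at 1.5-fold. In DMEM, 892 genes became 346 with normexp, 2295 at 1.5-fold and 586 when both arrays had to be well above background. Of the 29, 5 were lower in DMEM at 1.5-fold, and under the value table's own labels 1 was higher, Tm7sf2 at 1.22, and 0 lower. For the difference in response, 438 genes became 218 with normexp, where 1 of the 29 was called higher, and 915 when 2 arrays well above background sufficed.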
